A study of Mus musculus with 33 samples.

Results

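Splicing of 6 genes that act in cilia or centrosomes, Cfap54, Cfap99, Lrrc6, Cep170, Cep44 and Lrrc49, was followed through splicing tables of mice whose Dmpk gene carries a long CTG repeat, the kind of change that causes myotonic dystrophy type 1 in people. The 6 genes were picked by name, with results of these data known, from the 376 genes that have at least 1 event in the tables, and every row carrying their symbol was taken. They hold 6 of the 549 events, 1 each, and all 6 events are skipped exons. For each library the tables give inclusion, the percentage of a gene's transcripts at that place that hold the exon.

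The expansion groups were 480/480 choroid plexus and 480/480 tibialis anterior (TA, a fast leg muscle) from mice with 2 Dmpk alleles of 480 CTG repeats, 480/480 myotubes, and +/480 myotubes with 1 such allele. Their controls were wild-type (Dmpk+/+) choroid plexus, TA and myotubes, and all groups are on the FVB strain. Each group has 3 labelled libraries from separate mice, but the tables give 2 values for 480/480 choroid plexus (n = 2) and do not say which library is missing. Myotubes are multinucleate muscle cells differentiated in culture, here derived from the mice that also gave TA and choroid plexus, so the tissues are not independent. The labels used here give neither age nor sex. The other 4 labelled groups, with 12 libraries, were not analysed here.

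A cilium is a microtubule rod, the axoneme, that grows from a centriole docked at the cell surface as a basal body. Motile cilia add dynein motors, which are assembled in the cytoplasm before transport, and a central pair of microtubules with side projections. The choroid plexus makes the fluid of the brain, and its epithelial cells carry tufts of cilia. Differentiated muscle fibres carry no such tufts and move much of their centrosomal material to the nuclear envelope.

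The events fell into 2 tissues. The choroid plexus tables hold Cfap54, Cfap99, Lrrc6 and Cep170, with 4 of their 115 events. The TA tables hold Lrrc49 and Cep44, with 2 of their 81 events. Neither the 243 events of 480/480 myotubes nor the 110 of +/480 myotubes include any of the 6 genes. No exon of the 6 genes was listed in 2 tissues, so wild-type inclusion could not be compared between tissues for the same exon. The tables keep only events with an average of at least 5 reads, a false discovery rate (FDR) no higher than 0.05 and groups that differ by 10 percentage points of inclusion or more. A gene that is not in a table may therefore be spliced alike in both groups, or differ without passing these limits. It may also be too little expressed there to be measured, and these cases cannot be told apart. "Rose" and "fell" are used here for exons that passed that selection. Since the selection also chose the genes, the changes are a description and were given no test. With 3 libraries against 3, an exact two-sided permutation test could in any case not go below p = 0.10.

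The exons differed in what the annotation says of them. By GENCODE M21 on mm10, 5 of the 6 are wholly coding and Cep44's is untranslated. Their sequences are shown for the 5 coding exons, because their length and letters set what skipping removes. Each is read 5′ to 3′ from the annotated transcripts, and capitals mark any of 4 motifs, the letters TGCT or the letters TGCC, and the same beginning with C, written CGCT or else CGCC. These are words of a pyrimidine, GC and a pyrimidine bound by Mbnl proteins, the splicing regulators known to be held by CUG repeat RNA.
Cfap54, chr10:93035419-93035553, minus strand: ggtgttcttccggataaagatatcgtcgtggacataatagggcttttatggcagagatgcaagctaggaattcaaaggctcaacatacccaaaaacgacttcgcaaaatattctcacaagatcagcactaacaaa
Cfap99, chr5:34302554-34302648, plus strand: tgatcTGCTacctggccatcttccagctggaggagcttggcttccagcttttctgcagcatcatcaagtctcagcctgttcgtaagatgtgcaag
Lrrc6, chr15:66481241-66481318, minus strand: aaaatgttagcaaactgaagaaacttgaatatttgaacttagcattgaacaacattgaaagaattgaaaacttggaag
Cep170, chr1:176761351-176761500, minus strand: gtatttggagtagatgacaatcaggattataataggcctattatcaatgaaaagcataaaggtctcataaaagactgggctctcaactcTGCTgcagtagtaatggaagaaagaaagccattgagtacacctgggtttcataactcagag
Lrrc49, chr9:60680505-60680702, minus strand: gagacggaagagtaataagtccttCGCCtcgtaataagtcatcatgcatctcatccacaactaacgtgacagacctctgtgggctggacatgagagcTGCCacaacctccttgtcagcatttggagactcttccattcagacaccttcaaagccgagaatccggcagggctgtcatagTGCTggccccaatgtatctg

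In choroid plexus all 4 exons were nearly always included in wild type and were skipped more often in 480/480. The largest change was in Cep170, whose protein marks the subdistal appendages of the mature centriole. Lrrc6 encodes an assembly factor for axonemal dynein arms that is mutated in human primary ciliary dyskinesia. Cfap54 encodes a protein of the central pair projections, and its loss impairs ciliary motility in mice. Cfap99 is named as a cilia and flagella associated protein.

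Cep170 (ENSMUSG00000057335.11) inclusion was 65.4% and 77.4% in the 480/480 choroid plexus libraries, against 100% in all 3 wild-type libraries. No 480/480 library came within 22.6 points of wild type. The mean was 71.4% ± 8.49 in 480/480 (SD, n = 2) and 100% ± 0 in wild type (SD, n = 3), and inclusion fell by 28.6 points. The authors' deposited table gives Cep170 an FDR of 0.00326, and its change ranked 30 by size among the 68 skipped exons of the choroid plexus table.

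Lrrc6 (ENSMUSG00000022375.6) inclusion was 84.9% and 86.2% in the 480/480 libraries, against 100% in all 3 wild-type libraries. The 480/480 libraries lay close together, 1.3 points apart, and both were below wild type. The mean was 85.6% ± 0.919 in 480/480 (SD, n = 2) and 100% ± 0 in wild type (SD, n = 3), and inclusion fell by 14.4 points. In the authors' deposited table Lrrc6 has an FDR of 0.0152.

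Cfap99 (ENSMUSG00000109572.1) inclusion was 59.2% and 91.2% in the 480/480 libraries, against 100%, 92.9% and 100% in wild type. The groups did not overlap, but the higher 480/480 library was only 1.7 points below the lowest wild-type library. The mean was 75.2% ± 22.6 in 480/480 (SD, n = 2) and 97.6% ± 4.10 in wild type (SD, n = 3), so the change (fell by 22.4 points) was about as large as the SD within 480/480. It fell by 6.43 points without the 480/480 value listed first and by 38.4 without the other one. The FDR in the authors' deposited table is 0.0284.

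Cfap54 (ENSMUSG00000020014.17) inclusion was 79.6% and 89.2% in the 480/480 libraries, against 91.1%, 97.0% and 96.1% in wild type. The gap between the groups was 1.9 points. The mean was 84.4% ± 6.79 in 480/480 (SD, n = 2) and 94.7% ± 3.18 in wild type (SD, n = 3), and inclusion fell by 10.3 points, just inside the authors' limit of 10. Without the 480/480 value listed first it fell by 5.53 points. Its FDR is 0.0317 in the authors' deposited table, and the change ranked 67 by size among the 68 skipped exons.

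**Figure D1:**
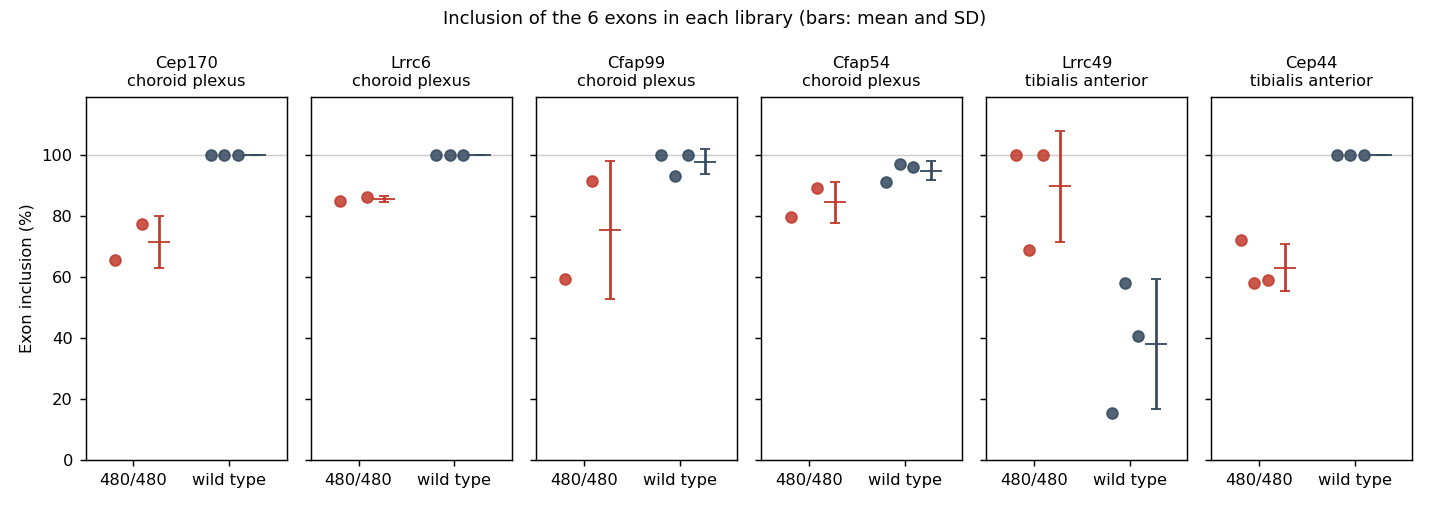
Inclusion (%, y axis) of the exon of each of the 6 genes in every library of the tissue whose table holds it, 480/480 at the left and wild type at the right of each panel; points are libraries, and bars show the mean and SD (n = 2 for 480/480 choroid plexus, n = 3 otherwise). The 480/480 points lie below every wild-type point in 5 panels and above them for Lrrc49, and the 480/480 choroid plexus points of Cfap99 are 59.2% and 91.2%.

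In all 4 exons the 480/480 libraries lay apart from the wild-type libraries, and 88.2% of the 68 skipped exons of the choroid plexus table had no overlap either. All 4 fell, as did 75% of the 68, whereas 25% of the 68 rose. An exon included in over 90% of wild-type transcripts can pass a change of 10 points only by falling. This held for all 4 exons, and 60.3% of the skipped exons had a wild-type mean of at least 90%. Wild type was at 100% in every library for Cep170 and Lrrc6, 2 of the 4, and for 14.7% of the 68. Cep170 alone had an FDR of 0.01 or less in the authors' deposited table, as had 36.8% of the 68. Cep170 and Cfap99 fell by 20 points or more, and 61.8% of the 68 changed by that much. The median change of the 4 exons was -18.4 points, beside -18.6 over the 68. None of these shares was tested.

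In each of the 4 exons the 480/480 value listed first was the one farther from wild type. The same was so at 41 of the 68 skipped exons of the choroid plexus table (60.3%), with 8 equal. Among the 51 that fell it was so at 37 (72.5%). Over all 115 choroid plexus events, 17 were equal, the second value was farther at 39 and the first at 59 (51.3%). The lists carry no mouse number, and the part of this library in the results was not tested. In tissue RNA a shift in splicing within a cell type and a shift in the mix of cell types cannot be told apart. The tables hold no expression levels, so the tissues could not be checked against their markers. None of 20 listed markers of choroid plexus epithelium had an event in the choroid plexus tables. None of 20 skeletal muscle markers had one there, and none had one in the TA tables either.

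**Figure D2:**
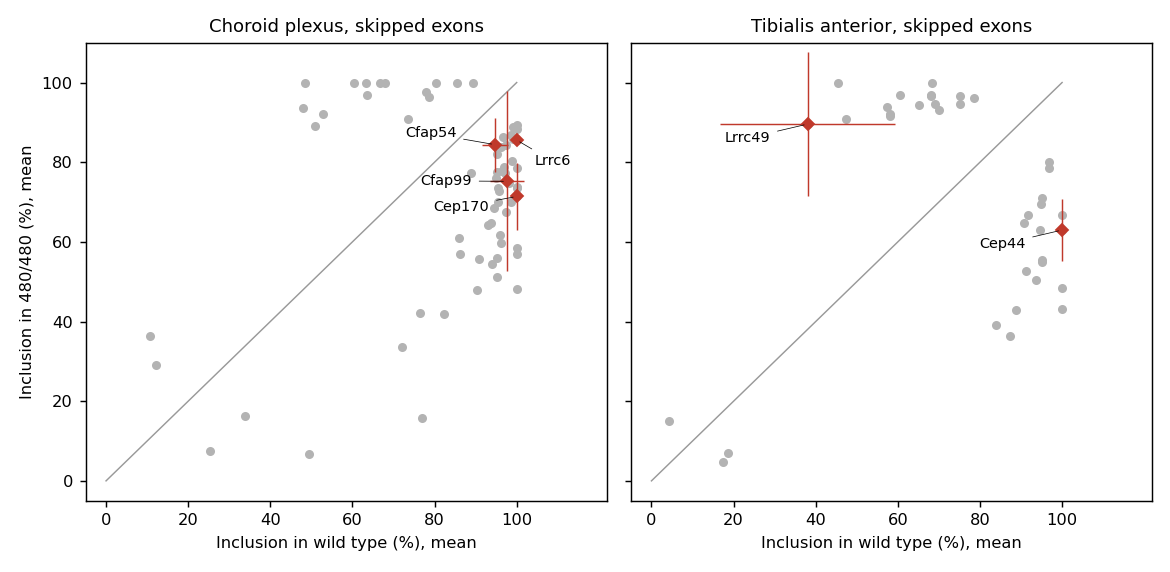
Mean inclusion in 480/480 (%, y axis) against mean inclusion in wild type (%, x axis) for every skipped exon of the choroid plexus table (left) and the TA table (right). Red diamonds with SD bars are the 6 genes, grey points the other exons and the line equal inclusion. The 4 choroid plexus exons and Cep44 sit below the line at the right edge among other exons with nearly full inclusion in wild type, and Lrrc49 sits far above it.

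In TA the 2 exons changed in opposite directions, and by more than the 4 in choroid plexus. Lrrc49 encodes a subunit of the tubulin polyglutamylase complex, which adds glutamate chains to the tubulin of axonemes and centrioles. Cep44 encodes a centrosomal protein that in human cells is needed for centrioles to become centrosomes.

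Lrrc49 (ENSMUSG00000047766.15) inclusion was 100%, 68.7% and 100% in the 480/480 TA libraries, against 15.5%, 57.9% and 40.7% in wild type. Both groups were widely spread, and 10.8 points separated the lowest 480/480 library from the highest wild-type library. The mean was 89.6% ± 18.1 in 480/480 and 38.0% ± 21.3 in wild type (SD, n = 3 each), a rise of 51.5 points. An FDR of 0.00538 stands in the authors' deposited table, and the change ranked 4 by size among the 37 skipped exons of the TA table.

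Cep44 (ENSMUSG00000038215.15) inclusion was 71.9%, 58.0% and 59.0% in the 480/480 TA libraries, against 100% in all 3 wild-type libraries. The groups lay 28.1 points apart, the widest gap among the 6 genes. The mean was 63.0% ± 7.75 in 480/480 and 100% ± 0 in wild type (SD, n = 3 each), and inclusion fell by 37.0 points. The FDR is 0.0155 in the authors' deposited table, and the change ranked 13 by size.

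Neither exon overlapped between the groups, against 73% of the 37 skipped exons of the TA table without overlap. Of those 37 exons 54.1% fell and 45.9% rose. Their median size of change was 31.6 points, against 25.4 in choroid plexus. Wild type was at 100% in every library for 10.8% of them, Cep44 included, and its mean was 90% or more for 40.5%. Both Lrrc49 and Cep44 changed by 20 points or more, as did 81.1% of the 37, and Lrrc49 had an FDR of 0.01 or less, as had 29.7% in the authors' deposited table.

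The motifs, searched on the transcribed strand with overlaps counted, were found once in Cep170 and once in Cfap99, both times as TGCT, and not in Cfap54 or Lrrc6. Lrrc49 held 3 and the Cep44 exon 2. Among the 66 distinct skipped exons of the choroid plexus table, 68.2% held at least 1 of the 4 motifs, against 2 of these 4. In TA 71.4% of 35 distinct exons held 1, as did both Lrrc49 and Cep44. A match is a match of letters only, and introns, where such regulators also bind, were not read here.

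Skipping leaves the reading frame intact in 4 of the 5 coding exons. The Cep170 exon (150 bases, exon 11 of 20) encodes 50 of 1578 codons, and the Lrrc6 exon (78 bases, exon 3 of 12) 26 of 473. The Cfap54 exon (135 bases, exon 13 of 68) encodes 45 of 3171 codons, and the Lrrc49 exon (198 bases, exon 4 of 17) 66 of 752. All of these lengths are multiples of 3, so the frame after the junction would be read as before. The Lrrc6 and Lrrc49 exons begin inside a codon, so the codon at their junction may change. Such a length is found in 61.5% of the 39 wholly coding exons listed for choroid plexus, and in 3 of the 4 here.

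Cfap99 is the exception. Its exon has 95 bases (exon 4 of 16, 4.89% of the coding sequence), which is not a multiple of 3. Joining its neighbours in the reference brings a stop codon 6 codons into the new frame, within the next exon, so that 92 codons in place of 648 would be read. The joined sequence from 30 bases before the junction to that stop codon, in capitals, shows where reading would end.
Cfap99, chr5, exons at 34301377-34301521 and 34305344-34305456 joined: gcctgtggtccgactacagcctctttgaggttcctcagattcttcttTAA
This form is built from the reference, and no protein was measured.

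In the 1 annotated transcript that holds it, the Cep44 exon (chromosome 8, 56549225 to 56549384, minus strand) has 160 bases and is untranslated. In that transcript, skipping the exon would leave the annotated coding sequence as it is. Both of its TA forms are annotated, the exon in 1 transcript and the direct junction of its neighbours in 1. For Lrrc49 the exon is annotated in 2 transcripts and its skipping in 4. By contrast, no annotated transcript joins the neighbours of the Cep170, Lrrc6, Cfap99 or Cfap54 exon. Such a junction is annotated for 59.1% of the 66 choroid plexus exons and for 85.7% of the 35 TA exons, and these shares were not tested against the 6 genes.

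The neighbourhoods varied widely as well. The Lrrc6 exon lies between introns of 8154 and 11251 bases and the Cep170 exon between 7732 and 2833 bases, whereas Cfap54 has 2260 and 597, and Cfap99 1032 and 2695. In TA the Lrrc49 exon lies between introns of 4332 and 333 bases and the Cep44 exon between 1303 and 1700. The medians over the choroid plexus exons were 2564 bases before and 2899 after the exon. GC content was 28.2% in the Lrrc6 exon, 38.7% in Cep170, 40.7% in Cfap54 and 51.6% in Cfap99, beside a median of 51.3% over the 66 exons. It was 50.5% in Lrrc49 and 33.8% in Cep44, beside a median of 47.1% in TA.

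**Figure D3:**
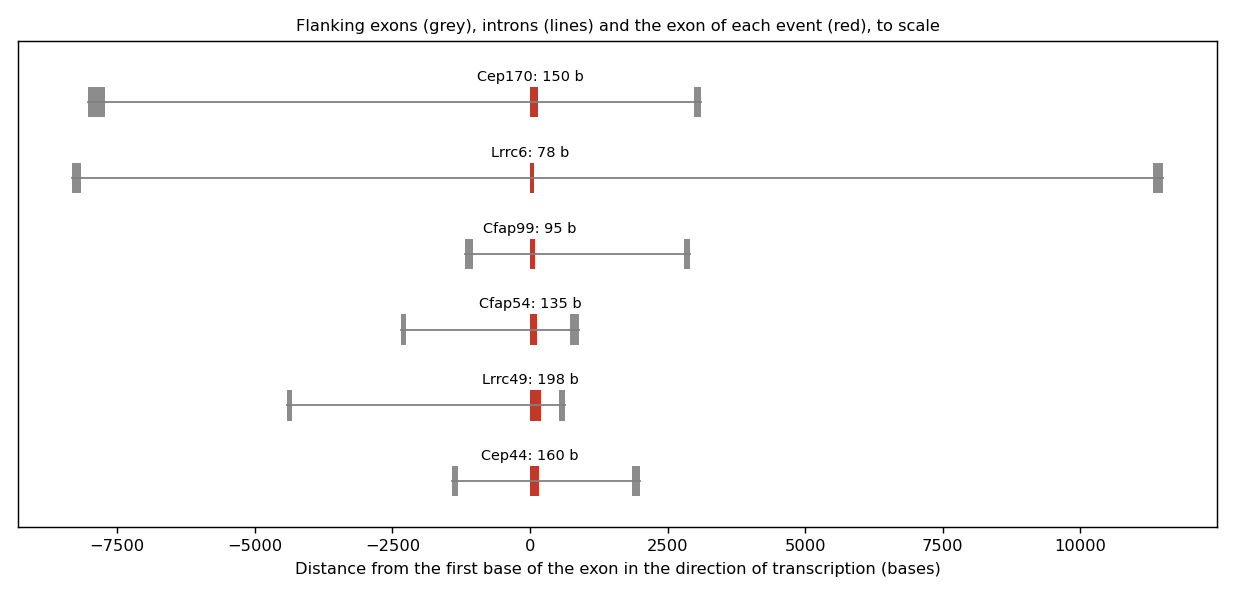
Map of each event drawn to scale in bases from the start of the exon in the direction of transcription (x axis), with the exon in red, its flanking exons in grey and the introns as lines. Exon lengths run from 78 bases in Lrrc6 to 198 in Lrrc49, and the Lrrc6 introns, of 8154 and 11251 bases, span the widest region.

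Other genes of the same structures were taken from lists of 323 symbols, of which 310 are in the annotation and which also hold the 6 genes. Without the 6 genes, 2 listed genes had an event in choroid plexus, 1.89% of the 106 genes with an event there. Of these 2, 1 fell (Ttc25) and 1 rose (Cntln), while 67% of all 115 events fell and 33% rose. With the 4 exons described above, the listed genes with an event were 3 of 76 axoneme and motility genes (all 3 fell), 1 of 19 genes of dynein arm assembly and 2 of 97 centriole and centrosome genes, but none of 47 genes of intraflagellar transport and the BBSome. None of 41 transition zone and ciliary trafficking genes, of 15 genes of the ciliogenesis programme or of 30 tubulin modification genes had one there.

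Ttc25, which encodes a docking factor of outer dynein arms, was the listed axonemal gene beside Cfap54 and Cfap99. Inclusion of its 85-base exon (chromosome 11, 100569856 to 100569940) was 55.6% and 72.9% in 480/480 choroid plexus, against 78.9%, 100% and 100% in wild type. The groups did not overlap, and the mean fell by 28.7 points. Cntln, which encodes the centriolar linker protein centlein, rose at a 3′ splice-site choice that adds 3 bases (exon at chromosome 4, 85063178 to 85063355). The longer form was at 100% and 93.9% in 480/480, against 0%, 61.6% and 68.4% in wild type, so the wild-type libraries themselves were far apart. The rise was 53.6 points, and 32.0 points without the wild-type library at 0%.

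In TA 2 listed genes other than the 6 had an event, 2.9% of the 69 genes with an event, and 1 rose (Tubgcp5) while 1 fell (Cep250). Of all 81 TA events 58% rose and 42% fell. With Cep44, 3 of 97 centriole and centrosome genes had an event, and Lrrc49 was 1 of 30 tubulin modification genes; the remaining lists had none. Retention of a Tubgcp5 intron (chromosome 7, 55825706 to 55826232), in a gene of the γ-tubulin ring complex, was 13.8%, 31.4% and 14.9% in 480/480, against 1.0%, 1.2% and 11.1% in wild type. It rose by 15.6 points with 2.7 points between the groups. Without the 480/480 library at 31.4% the rise was 9.92 points, under the authors' limit of 10. Retention of a Cep250 intron (chromosome 2, 155988433 to 155989498), in a gene for a protein that links centrioles, was 16.5%, 30.5% and 22.2% in 480/480, against 51.3%, 100% and 58.0% in wild type, and fell by 46.7 points. The authors' deposited table lists an FDR of 0.0467 for it, near their limit.

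In 480/480 myotubes 1 listed gene had events, 0.592% of the 169 genes with an event. This was Rilpl1, which encodes a Rab effector that controls the protein content of primary cilia, with 2 exons that fell. Of all 243 events there 60.9% fell and 39.1% rose. Its 24-base exon (chromosome 5, 124495899 to 124495922) was included at 28.4%, 26.4% and 32.8% in 480/480 myotubes, against 84.4%, 78.3% and 75.2% in wild type, and fell by 50.1 points with no overlap. The other change was at an 88-base exon (chromosome 5, 124496183 to 124496270), included at 40.0%, 32.1% and 28.2% in 480/480 myotubes, against 78.1%, 69.3% and 60.8% in wild type. Both Rilpl1 exons lie between the same neighbouring splice sites. Skipping either exon therefore gives the same junction, and the 2 falls are not independent. In +/480 myotubes 2 of the listed genes had an event, 2.27% of 88 genes, and both events fell, while 50% of all 110 fell. Rilpl1 inclusion at the same 24-base exon was 48.8%, 52.0% and 67.8% in +/480 and fell by 23.1 points, against the wild-type libraries that both myotube comparisons share. Retention of an intron of Cetn4, which encodes a centrin of basal bodies, was 7.0%, 15.8% and 25.3% in +/480, against 100% in all 3 wild-type libraries. No Cetn4 event was listed for 480/480 myotubes, which share those wild-type libraries, and the reason was not tested. Listed genes other than the 6 thus numbered 2 in choroid plexus, 2 in TA, 1 in 480/480 myotubes and 2 in +/480 myotubes, and no difference between the comparisons was tested.

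**Figure D4:**
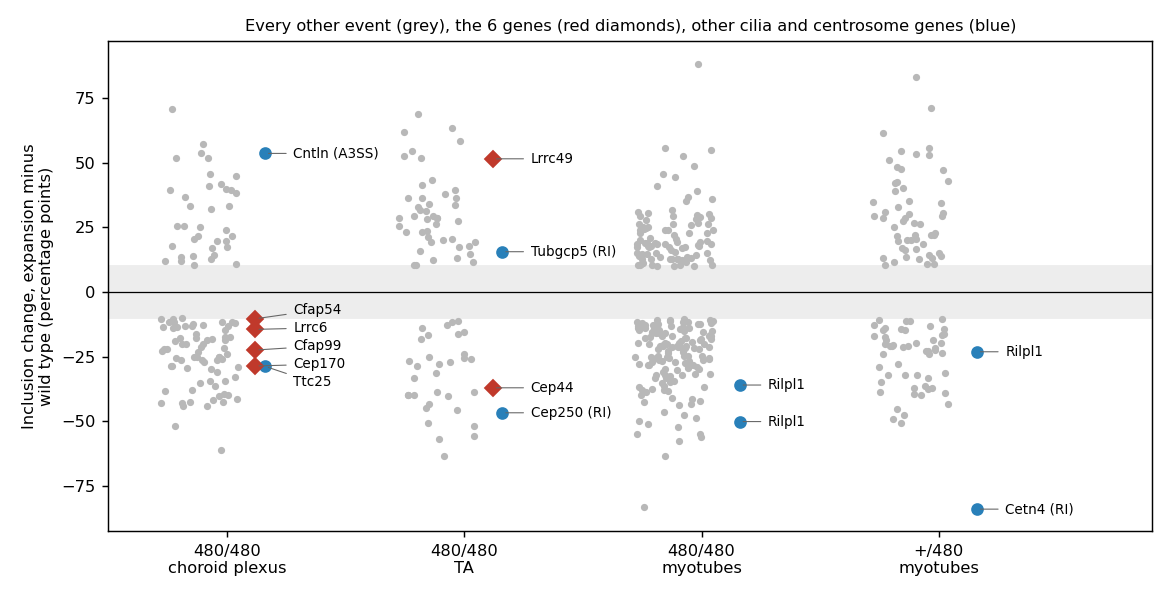
Inclusion change (percentage points, expansion minus wild type, y axis) of every event in the 4 comparisons (x axis), with the 6 genes as red diamonds, other listed cilia and centrosome genes as blue circles (A3SS, 3′ splice-site choice; RI, retained intron; unmarked, skipped exon) and all other events in grey. The grey band covers changes under 10 points, which the tables leave out; the 4 choroid plexus genes lie between -28.6 and -10.3 points, while Lrrc49 is at 51.5 and Cep44 at -37.0.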

How the data were processed

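RNA was extracted, depleted of ribosomal RNA and sequenced from directional paired-end libraries, per the labels' protocols. Reads were checked with FastQC and STAR placed them on mm10, per the submitters' processing notes. The event caller and all versions are not given in the sources used here. In all, the authors deposited 20 tables (4 comparisons by 5 event types), kept at an average of 5 reads, an FDR of 0.05 and a change of 10 points, per the file headers. The deposited inclusion is a fraction for each library, with the authors' p-value and FDR. The authors' difference score subtracts expansion from wild type. Here changes are percentages, expansion minus wild type, within 0.050 points of the deposited differences. The tables give no counts, so depth is unknown and no interval is given. Replicates are separate mice by the labels. Libraries are named by place in the value lists, which carry no replicate number.

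The members and gene lists were chosen with earlier results of these data known. Named genes are all rows of the 6 genes and every listed gene with an event. The alternatives were leaving out each library, medians, an FDR of 0.01, a change of 20 points, 1 event per gene and a gap of 5 points. Leaving out libraries for the other listed genes, and lists without the 6 genes, were added after seeing the data. The planned comparison of wild-type inclusion between tissues had no exon to run on. Exons were matched to GENCODE M21, and sequences read from its transcripts. The calculation was tested on simulated data with wild-type inclusion in the middle of the range. Exons at full inclusion in wild type, as for some of those here, were not covered by it. Python 3.11.15, NumPy 2.4.6 and matplotlib 3.10.9 were used.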

Additional observations from a re-analysis of the deposited data

How the results depend on the processing

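The groups do not overlap at any of the 6 exons, which by itself fixes the direction when 1 library is left out or medians replace means, so only the sizes are informative. Leaving out 1 library at a time, the change ranged from -34.6 to -22.6 points for Cep170, -15.1 to -13.8 for Lrrc6, -38.4 to -6.43 for Cfap99, -15.1 to -5.53 for Cfap54, -41.5 to -34.6 for Cep44 and 40.3 to 62.0 for Lrrc49. It stayed beyond 10 points in every such case except 3 for Cfap54 and 1 for Cfap99. At an FDR of 0.01 or less, 1 of the 4 choroid plexus exons remained (Cep170), and in TA the count that fell was 0 because Cep44 dropped out. The number of listed genes with an event, the 6 genes included, was then 1 in choroid plexus, 2 in TA, 1 in 480/480 myotubes and 2 in +/480 myotubes. Lists without the 6 genes, a choice made after seeing the data, gave 2, 2, 1 and 2. At a change of 20 points or more, 2 choroid plexus exons remained (Cep170 and Cfap99), and with a gap of 5 points or more between groups also 2 (Cep170 and Lrrc6). Other counts kept within 1.5 times their value. Leaving out 1 library at a time for the other listed genes was also added after seeing the data, and moved the change by over 1.5 times only for Cntln and Tubgcp5, as given with their values. No paired analysis was possible because the value lists carry no replicate or mouse number. The unknown depth behind each percentage, and 2 values for 480/480 choroid plexus, limit how firmly the smaller changes can be read.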

Other observations

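A pair of genes outside the lists, chosen after their values were seen, also act at centrioles. Mdm1, which encodes a centriolar microtubule-binding protein, fell in choroid plexus at a 3′ splice-site choice of 33 bases (exon at chromosome 10, 118150789 to 118150956). Its longer form was at 94.6% and 77.9% in 480/480, against 100%, 100% and 96.7% in wild type, with an FDR of 0.00147 in the authors' deposited table. Here the 480/480 value listed second was the lower one. Ppp1r35, which encodes a factor for centriole elongation, had a 137-base exon (chromosome 5, 137779626 to 137779762) in the 480/480 myotube table. Its inclusion was 100%, 92.0% and 100% in 480/480 myotubes, against 76.9%, 100% and 62.9% in wild type. The groups overlapped, although the authors' deposited table lists an FDR of 0.0443.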
